A study of Mus musculus with 7 samples.

Results

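Cathepsins are the main proteases of the lysosome, and cystatins are protein inhibitors of the cysteine cathepsins. This account follows 8 cathepsin genes (Ctsb, Ctsc, Ctsd, Ctse, Ctsh, Ctsk, Ctsl and Ctsz) and 2 inhibitor genes (Cst3 and Cstb) in mouse mammary tumours. The members were all probe sets whose only gene symbol on the platform is one of these names, which gave 17 probe sets for 10 of the 12393 genes with such a probe set. A probe set is a group of array probes summarised as a single value, and 6 of the genes had 1 while Ctsb, Ctse, Ctsz and Cstb had several.

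RNA was measured on Affymetrix arrays in transplant tumours of Met1 (3 arrays) and DB7 (4 arrays), mouse mammary tumour lines that both come from animals with a transgene for polyoma middle T. As background, Met1 metastasises readily and DB7, whose middle T is a mutant form, seldom does; each group is 1 line, so metastatic behaviour and every other difference between the lines cannot be told apart. The labels give no age, treatment or host strain and leave unsaid whether the arrays are of different animals, so a p-value here covers only the spread among these arrays, part of which may be technical. The series' design text speaks of tumours from outcross animals, and the sample labels were followed.

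Across all probe sets, arrays correlated at 0.994 to 0.996 within Met1, at 0.986 to 0.992 within DB7 and at 0.967 to 0.972 between the lines. The mean log2 level of 8 epithelial markers was 9.28 to 9.64 in Met1 and 9.96 to 10.10 in DB7. On every array this mean was well above the array medians of 6.53 to 6.61. Krt19 was above the median on 2 arrays only and was not tested. Of the 7 tested markers 5 were lower in Met1. Of all tested genes 17.9% were lower. Arrays DB7 1 and DB7 4 stood apart from the other DB7 arrays in some lists of non-tumour cell markers, but not in all. The mean log2 level of 7 B cell and plasma cell markers was 7.13 and 7.40 on these arrays, against at most 6.20 on DB7 2 and DB7 3 and 5.85 to 6.02 in Met1. For 10 T and NK cell markers it was 6.27 and 6.08 on DB7 1 and DB7 4, and 5.91 and 6.07 on DB7 2 and DB7 3. For 6 osteoclast markers it was 6.46 and 6.40, and 6.27 and 6.48. In bulk tumour RNA, fewer cells of a type and less RNA per cell cannot be told apart.

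Most cathepsins are made as inactive precursors, tagged with mannose 6-phosphate in the Golgi and carried to the lysosome, where acid activates them. Cathepsins B, C, H, K, L and Z are cysteine proteases, whereas D and E are aspartic proteases and are not held by cystatins. Tumour cells and the macrophages and fibroblasts around them all make cathepsins, and cathepsins released from cells can cut matrix proteins. Cystatin C (Cst3) is a secreted inhibitor and cystatin B (Cstb) a cytosolic one.

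Of the 10 genes, 9 had a probe set that could be tested, and 5 passed the threshold, which is a limma adjusted p under 0.05. Ctsh, Ctsl and Ctsd were higher in Met1, Ctse and Ctsz were lower in Met1, and Ctsb, Ctsc, Cst3 and Cstb did not pass. Among all 7482 tested genes 30.9% passed, 13% in the direction of higher and 17.9% in the direction of lower, so with 9 genes the share that passed is a description of these members only. The median difference, Met1 minus DB7, was 0.10 on the log2 scale over the 9 genes and -0.04 over all tested genes. By probe set, 15 of the 17 were tested, of which 4 were higher (1 of them, of Ctsb, favoured by the intensity filter) and 5 lower in Met1, where 31% of all 11704 tested probe sets passed. The values of the groups did not overlap at 8 of the 15 tested probe sets, beside 39.4% of all tested ones. With probe sets whose names end in _a_at, _s_at or _x_at left out, 1 gene was higher (Ctsh) and 1 lower (Cstb). This removed those of Ctsl, Ctsd, Cst3 and Ctsz and 1 each of Ctse and Cstb. Those removed for Ctsl, Ctsd, Cst3 and Cstb end in _a_at, and removal by ending does not show that a probe set detects another gene.

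**Figure D1:**
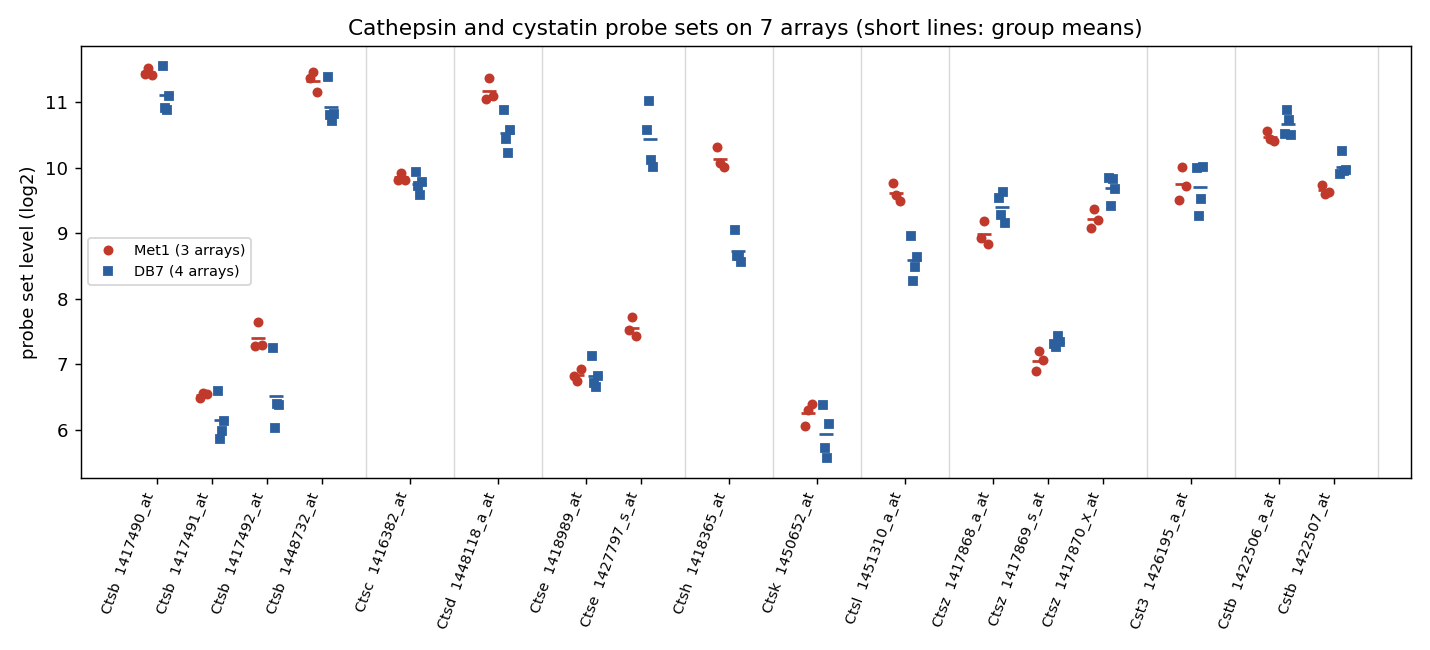
Log2 level (vertical axis) of each of the 17 probe sets of the 10 genes (horizontal axis) on the 3 Met1 arrays (circles) and the 4 DB7 arrays (squares), with short lines at the group means. Ctsh and Ctsl lay higher on every Met1 array, while the groups were furthest apart at 1 of the Ctse probe sets and overlapped at the other.

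The region just before the start of a gene holds part of its promoter, and lysosomal genes are known for an E-box element with the core TCACGTGA that is bound by Tfeb. RefSeq promoter sequences of assembly GRCm38.p6 were given for 6 of the 10 genes (Ctsc, Ctsd, Ctsk, Ctsl, Ctsz and Cst3), and the 250 bases before the start were searched on both strands for the palindromes CACGTG and TCACGTGA and for TGACTCA, an AP-1 element. Those of Ctsd at chr7:142387828-142388077 and of Ctsl at chr13:64370521-64370770, both on the minus strand, are shown because they are the 2 of 6 with a CACGTG. Capitals mark the matches, and the sequences run 5′ to 3′ towards the start.
Ctsd: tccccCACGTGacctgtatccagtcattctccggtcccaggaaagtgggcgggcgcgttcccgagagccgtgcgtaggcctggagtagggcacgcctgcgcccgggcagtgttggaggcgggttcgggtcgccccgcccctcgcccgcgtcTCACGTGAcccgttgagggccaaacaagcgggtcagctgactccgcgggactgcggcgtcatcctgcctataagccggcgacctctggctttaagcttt
Ctsl: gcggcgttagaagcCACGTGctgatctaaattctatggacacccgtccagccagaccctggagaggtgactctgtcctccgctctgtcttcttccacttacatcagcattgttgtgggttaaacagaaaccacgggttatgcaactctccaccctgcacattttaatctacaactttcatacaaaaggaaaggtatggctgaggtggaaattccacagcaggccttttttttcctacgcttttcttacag
In Ctsd the first bases of the CACGTG matches lay 245 and 98 bases before the start, and the nearer one sat inside the only TCACGTGA found among the 6 genes. In Ctsl the match lay 236 bases before the start given. The Ctsl bases end in a stretch rich in c and t followed by cag, as introns do, so they may not be a promoter. Whether that start is used in these tumours was not tested. Among all 32851 promoters in the table, 6.02% held CACGTG in this window, 0.785% held TCACGTGA and 4.46% held TGACTCA, which none of the 6 did. A match describes the letters only and shows no binding.

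Ctsh encodes cathepsin H, which mainly trims amino acids from the N-terminus of proteins, and it had the largest excess in Met1 among the members. Its probe set 1418365_at read 10.32, 10.08 and 10.01 (log2) on the Met1 arrays and 9.06, 8.66, 8.66 and 8.56 on the DB7 arrays. All Met1 arrays were above all DB7 arrays, and DB7 1 was the highest of its line. Ctsh was 2.64-fold higher in Met1, at 10.13 ± 0.16 (log2, SD, n = 3) against 8.73 ± 0.22 (n = 4), a difference of 1.40 (SE 0.13; limma, adjusted p = 0.000111). With each array left out in turn the difference stayed between 1.31 and 1.51 and passed 7 of 7 times.

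Ctsl encodes cathepsin L, an endopeptidase of the lysosome that is also secreted. Probe set 1451310_a_at read 9.78, 9.59 and 9.49 (log2) in Met1 and 8.95, 8.27, 8.49 and 8.64 in DB7. Again every Met1 array was above every DB7 array, with DB7 1 nearest to Met1. Ctsl was 2.04-fold higher in Met1, at 9.62 ± 0.15 (log2, SD, n = 3) against 8.59 ± 0.29 (n = 4), a difference of 1.03 (SE 0.15; limma, adjusted p = 0.00133), and it passed in all 7 fits with 1 array left out. Cathepsin L has close relatives in the mouse, the placental cathepsins Ctsj, Ctsm, Ctsq, Ctsr, Cts3, Cts6, Cts7 and Cts8, and the probe sets of all 8 lay below the array median on every array, at log2 levels of 2.53 to 5.51.

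Cathepsin D, encoded by Ctsd, is the major aspartic protease of the lysosome. Probe set 1448118_a_at read 11.04, 11.37 and 11.10 (log2) in Met1 and 10.88, 10.44, 10.23 and 10.57 in DB7. The groups did not overlap, although the lowest Met1 value and DB7 1 were close. Ctsd was 1.56-fold higher in Met1, at 11.17 ± 0.18 (log2, SD, n = 3) against 10.53 ± 0.27 (n = 4), a difference of 0.64 (SE 0.15; limma, adjusted p = 0.0119). Without array Met1 2 the difference was 0.54 and no longer passed (adjusted p = 0.0595), and without DB7 1 it was 0.76 (adjusted p = 0.00238).

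Ctsb encodes cathepsin B, a cysteine protease that tumours are known to secrete, and its result turned on a single array. Its brightest probe set, 1417490_at, read 11.44, 11.53 and 11.42 (log2) in Met1 and 11.56, 10.92, 10.88 and 11.10 in DB7. Array DB7 1 was the highest of all 7 arrays, while the other DB7 arrays were below every Met1 array. The means were 11.46 ± 0.06 (log2, SD, n = 3) and 11.11 ± 0.31 (n = 4), and the difference of 0.35 (SE 0.15, 95% interval -0.00 to 0.70) did not pass (limma, adjusted p = 0.122). Without DB7 1 it was 0.50 (SE 0.09) and passed (adjusted p = 0.00331).

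At each of the other probe sets of Ctsb, DB7 1 was again the highest of its line. Probe set 1448732_at read 11.37, 11.47 and 11.15 (log2) in Met1 and 11.39, 10.80, 10.72 and 10.83 in DB7, a difference of 0.39 (SE 0.16; limma, adjusted p = 0.0966) that became 0.54 without DB7 1 (adjusted p = 0.00395). Probe set 1417492_at, above the array median only on the Met1 arrays and DB7 1, read 7.28, 7.64 and 7.29 in Met1 and 7.25, 6.03, 6.39 and 6.38 in DB7. On these arrays DB7 1 was just below the lowest Met1 value and far above the rest of its line. The filter thus favoured this direction. The difference of 0.89 (SE 0.25; 1.86-fold) passed with all arrays (adjusted p = 0.0257), but not in 6 of the 7 fits with 1 array left out, where it reached an adjusted p of 0.106; without DB7 1 it was 1.14 (adjusted p = 0.000625). The remaining probe set, 1417491_at, was outside the intensity filter, which asked for a value above the array median on at least 3 arrays, and read 6.49, 6.56 and 6.55 in Met1 and 6.59, 5.86, 5.99 and 6.13 in DB7.

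Cathepsin C, encoded by Ctsc, is a dipeptidyl peptidase that activates serine proteases of immune cell granules. Probe set 1416382_at read 9.82, 9.93 and 9.82 (log2) in Met1 and 9.93, 9.72, 9.59 and 9.78 in DB7, and the groups overlapped. The difference was 0.10 (SE 0.10, 95% interval -0.12 to 0.32; limma, adjusted p = 0.474), so a fold as large as that of Ctsh lay outside the interval.

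Cathepsin K, encoded by Ctsk, is the collagen-degrading protease of osteoclasts and is also made by fibroblasts. Its probe set 1450652_at lay below the array median on all 7 arrays, at 6.05, 6.30 and 6.40 (log2) in Met1 and 6.38, 5.72, 5.57 and 6.09 in DB7, and so was not part of the main fit. In the fit without the filter the difference was 0.31 (SE 0.19; limma, adjusted p = 0.304). The 6 osteoclast markers measured had mean log2 levels of 6.27 to 6.34 in Met1 and 6.27 to 6.48 in DB7, with Calcr and Ocstamp below the median on every array.

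Cathepsin Z, encoded by Ctsz and also called cathepsin X, removes single residues from the C-terminus of proteins, and it was the cysteine cathepsin that was lower in Met1. Probe set 1417870_x_at read 9.09, 9.37 and 9.21 (log2) in Met1 and 9.85, 9.42, 9.83 and 9.67 in DB7. The groups did not overlap, but Met1 2 and DB7 2 lay next to each other. Ctsz was 1.39-fold higher in DB7, a difference of -0.47 (SE 0.12; limma, adjusted p = 0.019), and the call was lost without Met1 1 (adjusted p = 0.0793), without Met1 3 (0.0662) and without DB7 3 (0.0516).

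The other Ctsz probe sets differed in the same direction by less. Probe set 1417868_a_at read 8.93, 9.18 and 8.84 (log2) in Met1 and 9.54, 9.28, 9.63 and 9.16 in DB7, with DB7 4 inside the Met1 range, and differed by -0.42 (SE 0.14; limma, adjusted p = 0.046). Probe set 1417869_s_at read 6.90, 7.21 and 7.06 in Met1 and 7.31, 7.26, 7.44 and 7.34 in DB7, and differed by -0.28 (SE 0.09; adjusted p = 0.0423). Both calls were lost when the arrays were scaled to a common median (adjusted p = 0.0713 and 0.0787) or quantile normalised (0.0701 and 0.0809), and in 5 of the 7 fits with 1 array left out, including those without Met1 1, Met1 3, DB7 1 and DB7 3, with adjusted p up to 0.171 and 0.148.

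Cathepsin E, encoded by Ctse, is an aspartic protease of stomach lining and immune cells, and its probe sets disagreed. Probe set 1427797_s_at read 7.53, 7.72 and 7.43 (log2) in Met1 and 10.58, 11.02, 10.12 and 10.02 in DB7. Every DB7 array was far above every Met1 array. The means were 7.56 ± 0.15 (log2, SD, n = 3) and 10.44 ± 0.46 (n = 4), so the signal was 7.35-fold higher in DB7, a difference of -2.88 (SE 0.22; limma, adjusted p = 3.84e-05) that stayed between -3.02 and -2.68 with each array left out.

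The other Ctse probe set, 1418989_at, read 6.82, 6.74 and 6.93 (log2) in Met1 and 7.12, 6.72, 6.65 and 6.82 in DB7. The groups overlapped and all values were near the array median. The difference was 0.0014 (SE 0.12, 95% interval -0.27 to 0.27; limma, adjusted p = 0.994). Within an array, the first probe set exceeded this one by 0.73 ± 0.24 (log2, SD, n = 3) in Met1 and by 3.61 ± 0.48 (n = 4) in DB7, a gap of -2.88 between the lines (exact permutation test over 35 splits, two-sided, p = 0.0286, the smallest it allows; 0.2 after adjustment over 7 pairs of probe sets).

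The platform annotation assigns 1418989_at to a curated Ctse messenger RNA and 1427797_s_at to an expressed sequence tag. The ending _s_at marks a probe set that the maker found to match more than 1 transcript, so the direction given for Ctse rests on a probe set whose signal may include other transcripts; this was not tested. The mean log2 level of 10 stomach and parotid markers was 5.89 to 6.13 in Met1 and 6.28 to 6.66 in DB7, a gap carried by the parotid gene Bpifa2. Without Bpifa2, the mean of the other 9 was 6.01 to 6.10 in Met1 and 5.96 to 6.18 in DB7, and Gkn1, Tff2, Pgc, Amy1, Prol1 and Smr3a were below the median on all arrays. Bpifa2 was above the median on the DB7 arrays only, so its direction was built into its test, and its part in the Ctse signal was not tested.

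The other pairs of probe sets differed less between the lines. For Ctsb, the within-array gap between 1417490_at and 1417492_at changed by -0.55 (exact permutation test, p = 0.0571, adjusted 0.2). The gap to its other probe sets changed by -0.05 in both cases (exact permutation test, p = 0.314 and 0.543, adjusted 0.44 and 0.633). For Ctsz the gaps changed by -0.05 and -0.19 (exact permutation test, p = 0.686 and 0.114, adjusted 0.686 and 0.2), and for Cstb by 0.17 (exact permutation test, p = 0.0857, adjusted 0.2).

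**Figure D2:**
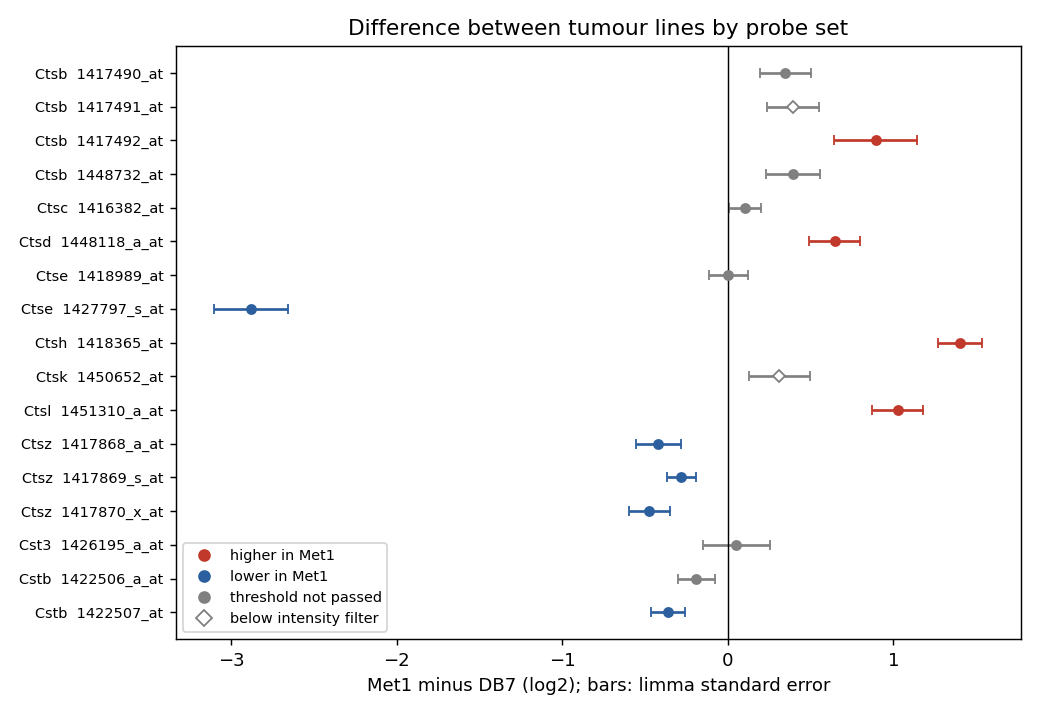
Met1 minus DB7 (horizontal axis, log2) for each of the 17 probe sets (vertical axis), with bars of 1 limma standard error. Filled red and blue points passed the threshold as higher or lower in Met1, filled grey points were tested and did not pass, and open diamonds were outside the intensity filter and come from the fit without it. Ctsh reached 1.40 and the _s_at probe set of Ctse -2.88, while the other Ctse probe set stood at 0.

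Neither inhibitor passed at its brightest probe set. Cst3 encodes cystatin C, and probe set 1426195_a_at read 9.51, 10.02 and 9.73 (log2) in Met1 and 10.01, 9.26, 9.53 and 10.01 in DB7. The groups overlapped fully, with DB7 1 and DB7 4 as high as the highest Met1 array. The difference was 0.05 (SE 0.20, 95% interval -0.41 to 0.51; limma, adjusted p = 0.872).

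Cstb encodes cystatin B, the inhibitor that holds stray cathepsins in the cytosol. Probe set 1422506_a_at read 10.57, 10.44 and 10.41 (log2) in Met1 and 10.52, 10.89, 10.74 and 10.51 in DB7, and differed by -0.19 (SE 0.11, 95% interval -0.44 to 0.06; limma, adjusted p = 0.228). Probe set 1422507_at read 9.73, 9.60 and 9.64 in Met1 and 9.90, 10.26, 9.95 and 9.96 in DB7. Only the latter separated the lines, with a difference of -0.36 (SE 0.10; 1.29-fold higher in DB7; adjusted p = 0.0279). That call was lost without each Met1 array (adjusted p = 0.0532, 0.106 and 0.0935 without Met1 1, 2 and 3) and with arrays scaled to a common median (0.0561).

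Within DB7, the arrays were not alike for several members. Both DB7 1 and DB7 4 were above both DB7 2 and DB7 3 at 9 of the 17 probe sets, of which 3 are of Ctsb and the others of Ctsc, Ctsd, Ctsk, Ctsl, Cst3 and, at 1418989_at, Ctse. Of the 15 tested member probe sets 7 had this order, beside 17.6% of all tested probe sets. The order was looked for after the values were seen, and the Ctsb probe sets share a gene. Ctsd and Ctsl had it and still separated the lines. The mean log2 level of 18 macrophage markers had the same order, at 8.55 and 8.28 on DB7 1 and DB7 4, 7.70 and 7.87 on DB7 2 and DB7 3, and 8.08 to 8.34 in Met1. The 11 fibroblast markers measured gave 9.12 and 8.52, then 7.98 and 7.60, and 8.45 to 9.06 in Met1. Of the tested markers, 1 of 15 macrophage genes was higher and 1 lower in Met1, and none of 8 fibroblast genes passed in either direction. Of all tested genes 13% were higher and 17.9% lower.

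Among the macrophage markers Itgam, Cd163 and Fcgr1 were below the array median throughout, as were Pdgfra and Pdgfrb among the fibroblast markers and Cd79a, Cd79b and Pou2af1 among the B cell markers. The part of these cells in the member levels was not tested. Leaving out DB7 1 and DB7 4 lowers the DB7 mean of every gene read higher on them than on DB7 2 and DB7 3. A larger excess in Met1 was thus built in for members such as Ctsb, Ctsd and Ctsl, and this fit is no separate support. Without these arrays, Ctsh differed by 1.48 (limma, adjusted p = 0.000179), Ctsl by 1.24 (0.000474), Ctsd by 0.84 (0.00254) and 1427797_s_at of Ctse by -3.01 (0.00023). In that fit 1417490_at of Ctsb passed (0.56, adjusted p = 0.00192), as did 1422506_a_at of Cstb (-0.34, 0.0291), while 1417870_x_at of Ctsz did not (-0.41, 0.0716).

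**Figure D3:**
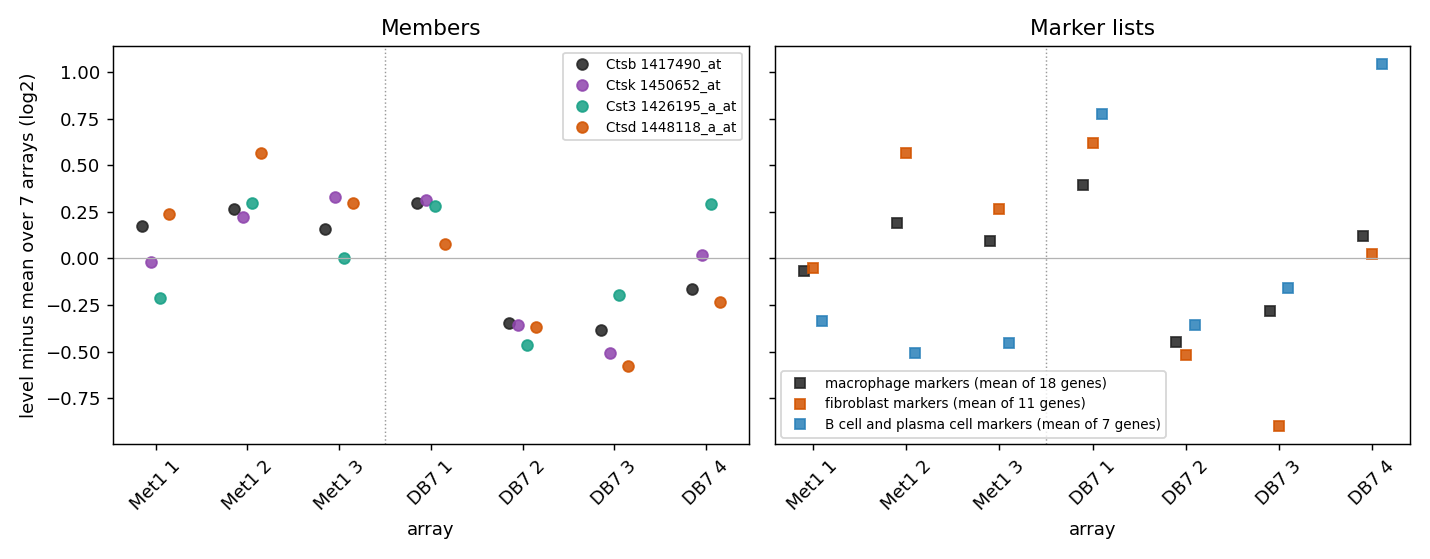
Level minus its mean over the 7 arrays (vertical axis, log2) by array (horizontal axis), for the brightest probe sets of Ctsb, Ctsk, Cst3 and Ctsd (circles, left; chosen after their values were seen) and for the mean of each marker list (squares, right). DB7 2 and DB7 3 lay below DB7 1 and DB7 4 in all 4 members shown and in the macrophage, fibroblast and B cell lists.

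For each member that spanned more than 1.0 log2 unit over the arrays, the tested genes with the most similar centred profile over the 7 arrays were looked up by the root mean square difference, in log2 units. For Ctsh these were Fos (0.0836), Far1 (0.125) and Actn1 (0.136). For Ctsl they were Gdap10 (0.0929), Cybc1 (0.0968) and Tgfbr2 (0.097), and for Ctsd Zfp36l1 (0.0866), Pxn (0.105) and Mylk (0.1145). The genes named were not alone in their likeness. Of the 7482 tested genes, 30 lay within 0.2 of Ctsh, 49 within 0.2 of Ctsl and 108 within 0.2 of Ctsd. Ctse had none within 0.2, and its nearest genes were B4galnt2 (0.208), Bdh1 (0.265) and Bcar3 (0.357).

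Other lysosomal peptidases were mixed. Of 21 listed genes 8 were tested, of which 4 were higher and 1 lower in Met1, with a median difference of 0.26 (log2). The shares over all tested genes were 13% higher and 17.9% lower. Lgmn, the asparaginyl endopeptidase legumain that processes cathepsin precursors, read 8.54, 8.89 and 8.87 (log2) in Met1 and 8.63, 7.62, 7.66 and 8.15 in DB7, where DB7 1 lay inside the Met1 range. It was 1.68-fold higher in Met1 (0.75, SE 0.23; limma, adjusted p = 0.0376), a call kept in 1 of 7 fits with 1 array left out (adjusted p up to 0.126). Prcp, a carboxypeptidase, was 1.40-fold higher (adjusted p = 0.00632), and Tpp1, a tripeptidyl peptidase, was 1.30-fold higher (0.0215; lost when any Met1 array was left out).

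Ctsa, the protective protein that also stabilises other lysosomal enzymes, was 1.3-fold higher at the edge of the threshold (limma, adjusted p = 0.0496). Cpq, a lysosomal carboxypeptidase, was lower in Met1, at 7.62, 7.47 and 7.69 (log2) against 8.09, 8.28, 8.07 and 8.02 in DB7 (-0.52; adjusted p = 0.00303). Ctss, the cathepsin S of antigen-presenting cells, followed the DB7 arrays as Ctsb did, at 9.87, 10.40 and 10.11 in Met1 and 10.42, 9.47, 9.70 and 10.35 in DB7 (0.14; adjusted p = 0.698).

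Among 22 listed relatives of the cystatins, 4 were tested and 3 were lower in Met1. These 3 passed the intensity filter through their DB7 arrays, so a lower value in Met1 was built into their count and says nothing about the family. Ahsg, the plasma protein fetuin A of the cystatin superfamily, read 5.73, 5.77 and 5.82 (log2) in Met1 and 7.48, 7.65, 7.82 and 7.84 in DB7, a difference of -1.93 (SE 0.10; limma, adjusted p = 4.53e-06). Cst10, a cystatin known from cartilage, read 5.08, 5.41 and 5.42 in Met1 and 7.06, 7.82, 7.20 and 6.18 in DB7 (-1.76, SE 0.32; adjusted p = 0.00322). Cst6, the secreted cystatin E/M, read 6.25, 6.12 and 6.13 in Met1 and 6.80, 6.80, 7.26 and 7.69 in DB7 (-0.97, SE 0.20; adjusted p = 0.00672). All Met1 values of these genes were below the array median, so their folds are approximate. The fourth tested relative, Hrg, differed by -0.01 (adjusted p = 0.941).

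Genes that carry cathepsins to the lysosome moved in both directions. Of 15 tested, 3 were higher and 4 lower in Met1 at the brightest probe set, with a median of -0.05 (log2). The shares over all tested genes were 13% higher and 17.9% lower. With the probe set of smallest p per gene, 8 genes of this list were lower. Sorl1, a sorting receptor between Golgi and endosome, read 8.26, 8.52 and 8.43 (log2) in Met1 and 9.41, 9.39, 9.45 and 9.45 in DB7. It was 2.03-fold higher in DB7 (-1.02, SE 0.09; limma, adjusted p = 5.84e-05), and the DB7 arrays hardly differed among themselves.

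Gnptab, which makes the mannose 6-phosphate tag, was lower in Met1 (-0.47; limma, adjusted p = 0.0107), as was Gga2, an adaptor for the receptors of that tag (-0.49; 0.00683). For the receptor genes the call turned on the probe set. Igf2r gave -0.27 at its brighter probe set, which passed (0.043), and -0.23 at the other, which did not (0.175). M6pr gave -0.28 at its brighter probe set, which did not pass (0.0623), and -0.54 at the other, which did (0.0115). Sort1, Scarb2 and Ap1g1 did not pass at their brightest probe sets. Another probe set of each was lower, at -0.48 (0.00298), -0.80 (0.00236) and -0.29 (0.0397). Higher in Met1 were the clathrin adaptor subunits Ap1b1 (0.37; 0.00994) and Ap1m2 (0.33; 0.0161) and Psap, the precursor of the saposins (0.39; 0.0413).

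Of 23 tested genes on a list of lysosomal hydrolases other than proteases, 7 were higher in Met1, none was lower and 16 did not pass. The shares over all tested genes were 13% higher and 17.9% lower. The median difference of the list was 0.17 (log2). The list, called hydrolases in what follows, also held Npc2, Gm2a and Hgsnat, which are not hydrolases. Npc2 was among the 7 higher genes (0.45; limma, adjusted p = 0.0296). Lipa, the acid lipase, read 9.43, 9.78 and 9.46 (log2) in Met1 and 7.92, 7.54, 7.66 and 7.59 in DB7, with a wide gap between the lines, and was 3.68-fold higher in Met1 (1.88, SE 0.12; limma, adjusted p = 1.52e-05). Gaa, the acid alpha-glucosidase, read 9.94, 9.51 and 9.65 in Met1 and 8.36, 8.31, 7.83 and 8.11 in DB7 and was 2.93-fold higher (1.55, SE 0.15; adjusted p = 0.000119). The beta-glucuronidase gene Gusb was 2.1-fold higher (0.000873) and the palmitoyl thioesterase gene Ppt1 1.45-fold higher (0.00354). Gusb and another of the 7, Sgsh, were above the array median on the Met1 arrays and 1 DB7 array only, so the filter favoured this direction for them. Without DB7 1 and DB7 4, 12 of the listed genes were higher, a rise built in for genes read higher on these arrays than on the other DB7 arrays.

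The lysosomal membrane and its proton pump showed smaller differences, with 8 of 22 tested genes higher in Met1 by 1.18-fold to 1.48-fold, none lower, and a median of 0.25 (log2). The shares over all tested genes were 13% higher and 17.9% lower. With 1 array left out, 3 to 8 genes of this list were higher. The pump subunits named were Atp6v1d (0.55; limma, adjusted p = 0.00793), Atp6v0d1 (0.51; 0.00832), Atp6v1a (0.57; 0.0162) and Atp6v1e1 (0.28; 0.0189). Without Met1 1 or Met1 2 the call of Atp6v1a was lost, as was that of Atp6v1e1 without Met1 2 or Met1 3 (adjusted p up to 0.0745 and 0.0888). Tfeb, the transcription factor known to drive lysosomal genes, differed by -0.12 (adjusted p = 0.363), and it was the only tested gene of its 4-member family.

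Of 15 tested matrix substrates and partners of secreted cathepsins, 1 was higher and 2 were lower in Met1. The shares over all tested genes were 13% and 17.9%. Without DB7 1 and DB7 4 the counts were 7 and 0, a shift built in for genes read higher on these arrays than on the other DB7 arrays. Mmp14, a membrane-bound matrix metalloproteinase, read 7.23, 7.30 and 7.73 (log2) in Met1 and 8.36, 7.88, 7.85 and 8.18 in DB7 (-0.65, SE 0.16; limma, adjusted p = 0.014), a call lost without Met1 1 or Met1 2 (adjusted p up to 0.0658). The laminin chain genes Lamb1 and Lamc1 went opposite ways, at 0.57 (0.0104) and -0.28 (0.0418). Lamb1 was above the array median on the Met1 arrays only, so its direction was built into its test. S100a10, a partner of the plasminogen receptor annexin, did not pass (0.42; 0.0887).

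**Figure D4:**
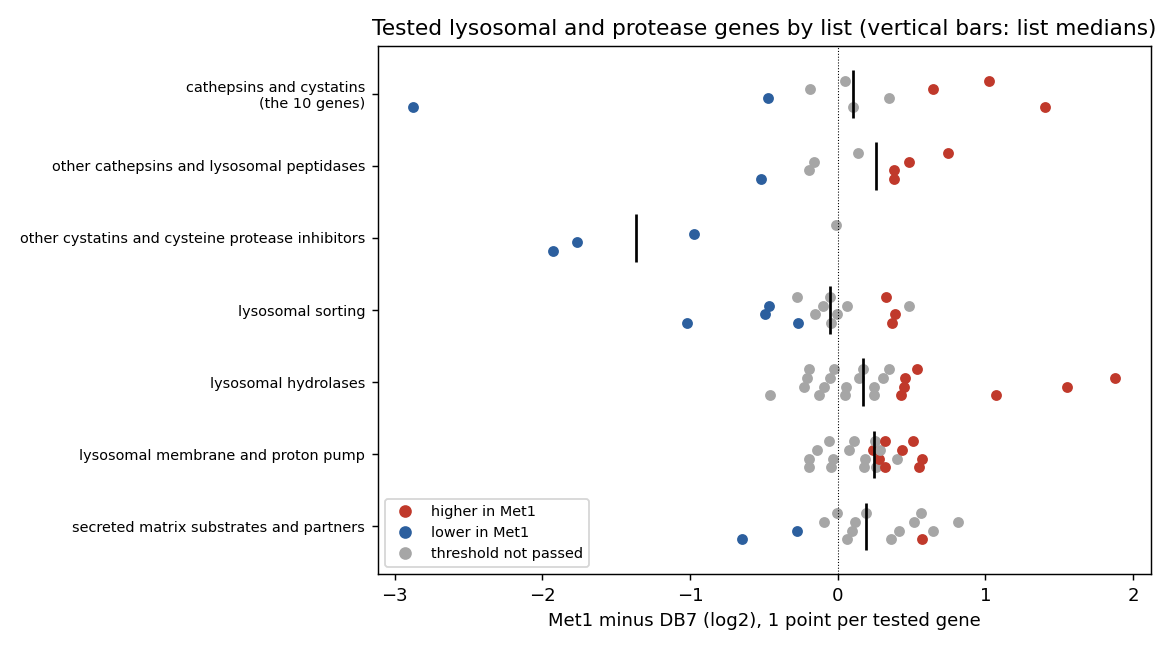
Met1 minus DB7 (horizontal axis, log2) of each tested gene, 1 point a gene, for the 10 cathepsin and cystatin genes and for 6 lists (vertical axis); red and blue points passed the threshold as higher or lower in Met1, grey ones did not, and vertical bars are medians. The hydrolase and membrane lists hold red and grey points only, with medians of 0.17 and 0.25, whereas the members spread from -2.88 to 1.40.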

How the data were processed

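The authors' deposited table holds 1 value per probe set and array, taken as log2 from its range; the log base is not stated there. RMA and MAS5 appear in the submitters' processing notes with no role; versions and background correction: not given in the sources used here. Values were used as deposited. Of 22690 probe sets, 64 controls were left out; of the other 22626, GEO's platform annotation gives 20380 a single symbol, 691 several and 1555 none, and 20351 Entrez identifiers matched the RefSeq gene table, with 0 symbols updated. The files name no genome build.

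Probe sets above the array median on at least 3 of 7 arrays were tested (11704). The fit of Met1 against DB7 used limma 3.58.1 under R 4.3.3 (lmFit, eBayes with intensity trend, two-sided, Benjamini-Hochberg over all tested probe sets, threshold 0.05). The fit was tested on simulated data. A gene was represented by its brightest tested probe set. The number of arrays limits precision. Within-array differences between probe sets were compared by exact permutation in Python 3.11.15, and figures were drawn with matplotlib 3.10.9.

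The members and lists were chosen with earlier results of these data known. Named were all members, per list up to 4 tested genes (smallest p first), and the 3 nearest profiles of members spanning more than 1.0 log2. Ctsa, Ctss, Igf2r, M6pr, Sort1, Scarb2, Ap1g1, Ap1m2, Psap, Npc2, Gm2a, Hgsnat, Bpifa2 and the markers were named after their values were seen. Alternatives covered normalization, filter, variance model, array weights, probe set choice, arrays left out and the replicate number as a block.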

Additional observations from a re-analysis of the deposited data

Results flagged for a closer look

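Values were checked for a single DB7 array far from the other 3, in 42 groups of 4 arrays, and 3 stood out; chance flags about 1 in 20 such groups. At probe set 1448732_at of Ctsb, array DB7 1 read 11.39 (log2) while the other DB7 arrays lay between 10.72 and 10.83. At 1422468_at of Ppt1, array DB7 4 read 7.93 against 7.57 to 7.63. At 1423885_at of Lamc1, array DB7 2 read 7.48, below the 7.75 to 7.77 of the others.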

How the results depend on the processing

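Among the members and the up to 4 genes per list named by the rule, no difference called with all arrays changed sign under any alternative run; other called genes were not followed singly. Ctsh, Ctsl and the _s_at probe set of Ctse passed in every fit that contained them. With each array left out in turn, the members higher in Met1 numbered 2 to 4 and those lower 1 to 2, where 3 and 2 were found with all arrays; the other peptidases higher numbered 1 to 4, sorting genes 1 to 4 higher and 3 to 4 lower, hydrolases 6 to 7 higher, membrane and pump genes 3 to 8 higher, and matrix genes 1 to 4 higher and 0 to 2 lower. Leaving out probe sets whose names end in _a_at, _s_at or _x_at kept 1 member higher (Ctsh) and 1 lower (Cstb, by 1422507_at), and 0 matrix genes higher. Without an intensity filter 2 other peptidases and 5 membrane genes were higher, and with a filter asking for all 7 arrays 0 cystatin relatives were lower and 0 matrix genes higher, since those genes were then not tested. Taking the smallest p per gene gave 8 sorting genes lower. Array weights gave 2 hydrolases lower and 3 matrix genes higher, and 4 members higher, since Ctsb then passed (0.37, limma adjusted p = 0.0394). Quantile normalization and median centring each left 1 matrix gene lower. Without DB7 1 and DB7 4, 12 hydrolases and 7 matrix genes were higher, 1 membrane gene and 0 matrix genes were lower. The rise in higher genes was built in where these arrays held the highest DB7 values. Arrays with the same replicate number shared little deviation from their group means (correlations -0.17, -0.05 and 0.02). The labels do not say whether the numbers pair the samples, and these correlations cannot settle it. With the number as a block, 1 member and 0 matrix genes were lower, with Ctsz at a limma adjusted p of 0.0757. In that fit 2 other peptidases, 1 sorting gene and 3 membrane genes were higher. Median centring moved the share of calls that were higher in Met1 from 41.9% to 50.3% of called genes. Low probe sets such as those of Ctsk and 1417491_at of Ctsb lay near or below the array median.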
